A study of Mus musculus with 9 samples.

Results

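The genes described here are 8 genes of cholesterol synthesis and its control, namely Srebf2, Insig1, Hmgcs1, Idi1, Sqle, Lss, Cyp51 and Dhcr7. Their members on the array were all probe sets that the platform annotation gives to 1 of these symbols and to no other gene, which made 18 of the 45037 probe sets that are not controls. They represent 8 of the 18193 genes with a probe set of their own. There were 5 probe sets for Hmgcs1, 3 each for Lss and Cyp51, 2 each for Srebf2 and Idi1, and 1 each for Sqle, Insig1 and Dhcr7. A probe set is a group of short probes whose brightness is summarised as 1 value. Probe sets of a gene are not independent measurements, because all those of Srebf2, Idi1, Lss and Cyp51 were designed from 1 source sequence per gene and those of Hmgcs1 from 2.

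Gene expression was measured in aortas of female APOE-/- mice on a C57BL/6 background, labelled as 8 weeks old, which had eaten a diet with 0.2% cholesterol and 10% coconut oil for 30 weeks. The labelled age is shorter than the time on the diet, so it cannot be the age at death. All 3 groups carried the APOE-/- genotype and ate this diet, so no group shows the normal aorta. The first group received HDAd-gE3, a helper-dependent adenovirus (a vector stripped of viral genes) that expresses human apolipoprotein E3. The second received the empty vector HDAd-0 and the third phosphate-buffered saline (PBS), each as 1 tail-vein injection, and the mice were killed 10 days later. Each array held RNA pooled from 3 aortas, taken from sinus to arch, and each group had 3 arrays. What promoter drives the transgene is not known here.

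Cholesterol is made from acetyl-CoA through mevalonate, isoprenoid units, squalene and lanosterol. SREBP2, the product of Srebf2, is a transcription factor held in the endoplasmic reticulum while sterols are plentiful. When sterols run low it is carried to the Golgi, cut free by proteases and turns on the genes of this pathway, its own gene among them. INSIG1 holds the SREBP precursor back, and its gene is itself a target, which closes a feedback loop. Macrophages that take up lipoprotein cholesterol in atherosclerotic lesions are a textbook setting in which the pathway is held low.

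SREBP2 binds the sterol regulatory element, often next to boxes bound by NF-Y. RefSeq promoter windows (250 bases before to 50 after a gene start, assembly GRCm38.p6) were found for 7 of the 8 genes, in 9 windows, 3 of them of Dhcr7. The core of the element was searched on both strands as TCACNCCA, and the NF-Y box as CCAAT. The 2 windows that hold the core are shown, since they hold letters of the element that SREBP2 binds. Capitals mark matches to the core and, as CCAAT or its complement ATTGG, to the NF-Y box.
Srebf2, chr15:82147019-82147318, plus strand: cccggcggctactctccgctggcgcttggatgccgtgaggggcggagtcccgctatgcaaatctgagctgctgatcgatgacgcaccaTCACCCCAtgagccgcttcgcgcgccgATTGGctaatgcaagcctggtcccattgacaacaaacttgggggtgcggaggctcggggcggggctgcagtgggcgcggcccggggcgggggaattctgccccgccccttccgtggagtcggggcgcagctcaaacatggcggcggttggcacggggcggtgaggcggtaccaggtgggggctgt
Hmgcs1, chr13:119690101-119690400, plus strand: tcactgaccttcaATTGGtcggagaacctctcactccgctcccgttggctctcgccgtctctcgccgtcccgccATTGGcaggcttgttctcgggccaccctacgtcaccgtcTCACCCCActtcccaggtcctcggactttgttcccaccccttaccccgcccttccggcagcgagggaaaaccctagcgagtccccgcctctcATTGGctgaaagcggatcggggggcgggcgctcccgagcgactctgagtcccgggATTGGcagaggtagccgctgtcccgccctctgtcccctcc
The core began at position -162 from the gene start in Srebf2 and at -137 in Hmgcs1, on the strand of the gene in both. Of all 32851 promoter windows, 4.36% held this core. The NF-Y box was found for all 7 genes, in 7 of their 9 windows, against 37.4% of all windows. The Sp1 box GGGCGG was found for all 7 genes, in 8 windows, against 35.7% of all. The core ends with the letters that open the NF-Y box, so matches of the pair can overlap, which they did not in the windows shown. A match describes letters in a window, not a bound site.

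Signals were deposited on a log2 scale and spanned 1.98 to 14.7. Medians of single arrays lay between 6.67 and 6.77, and the lowest correlation between any 2 arrays was 0.991. All 8 smooth muscle markers tested were bright, with mean log2 signals from 11.8 to 14.0, and so were all 8 macrophage markers, from 10.5 to 13.1. Smooth muscle is the main cell of the aortic wall, and macrophages gather in lesions. All 8 cardiac muscle markers were bright too, from 11.1 to 13.3. In such bulk tissue, fewer cells of a type and less RNA per cell cannot be told apart. RNA quality was read from the log2 signal of control probe sets at the 3' end of Actb and Gapdh less that at the 5' end. It averaged 0.866 ± 0.071 in the PBS group (SD, n = 3), 0.933 ± 0.163 in the HDAd-0 group and 0.735 ± 0.069 in the HDAd-gE3 group. The running numbers in the sample titles do not interleave between groups, and should they mark when arrays were processed, that order and the groups cannot be told apart. With 3 arrays per group, precision is limited.

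None of the 8 genes passed the test in any comparison. The test was a linear model fitted to all 9 arrays (limma, with p adjusted by the Benjamini-Hochberg method over all 45037 probe sets and a threshold of 0.05). Differences are given on the log2 scale with their standard error (SE) and 95% confidence interval, which is per probe set and not adjusted. For each gene, its brightest probe set (by the mean of the 9 arrays) is given first, and values come in the order of the replicate numbers in the labels.

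**Figure D1:**
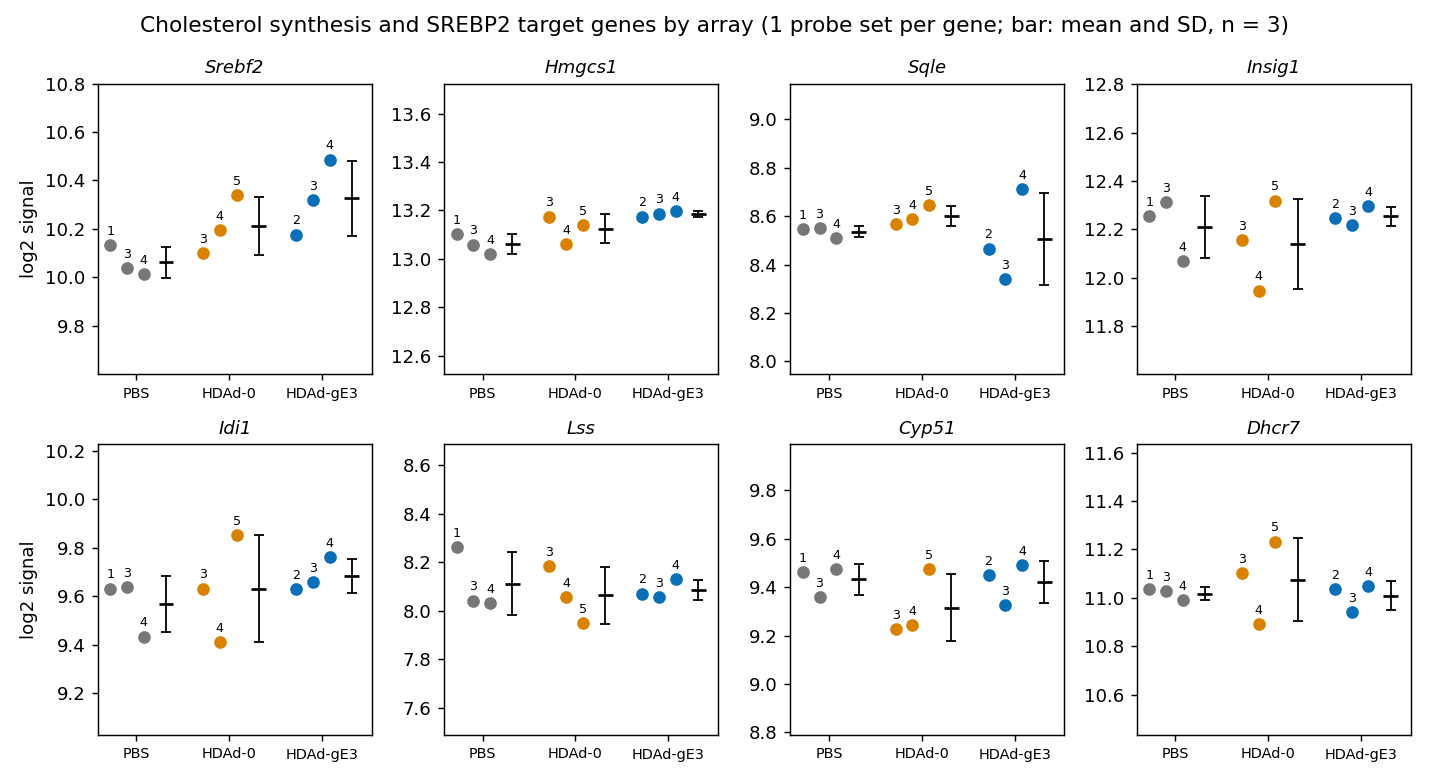
Log2 signal of the 8 genes in each array, 1 probe set per gene, grouped by injection. Points are arrays with their replicate number, bars beside them the mean and SD (n = 3), and every panel spans the same number of log2 units. Srebf2 and Hmgcs1 are the genes here in which every HDAd-gE3 array lies above every PBS array.

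Srebf2 had the highest mean with HDAd-gE3 and the lowest with PBS. The log2 signal of 1452174_at was 10.13, 10.04 and 10.01 with PBS. It was 10.10, 10.20 and 10.34 with HDAd-0. It was 10.18, 10.32 and 10.49 with HDAd-gE3. Every HDAd-gE3 array lay above every PBS array, while the HDAd-0 arrays overlapped both groups. HDAd-gE3 minus PBS was 0.27 ± 0.098 (SE; interval 0.04 to 0.49), a 1.2-fold higher signal, with an adjusted p of 0.383 (limma). The neighbouring groups differed by 0.11 ± 0.098 between HDAd-gE3 and HDAd-0 (adjusted p = 0.632, limma) and by 0.15 ± 0.098 between HDAd-0 and PBS (adjusted p = 0.565), neither beyond the spread. The other probe set, 1426744_at, read 8.03, 7.94 and 7.83 with PBS, 7.88, 8.14 and 8.13 with HDAd-0, and 8.15, 8.24 and 8.40 with HDAd-gE3. Here the HDAd-gE3 arrays lay above all 6 others. HDAd-gE3 was 0.33 ± 0.10 above PBS (interval 0.09 to 0.56, adjusted p = 0.32, limma) and 0.21 ± 0.10 above HDAd-0 (interval -0.02 to 0.44, adjusted p = 0.425). Both probe sets gave the same order of group means, and both come from 1 source sequence.

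Insig1, the anchor that retains the SREBP precursor in the endoplasmic reticulum, was measured by 1454671_at. It read 12.25, 12.31 and 12.07 with PBS. It read 12.16, 11.95 and 12.32 with HDAd-0, and 12.25, 12.22 and 12.30 with HDAd-gE3. All 3 groups overlapped, and the lowest value belonged to HDAd-0 replicate 4. HDAd-gE3 differed from HDAd-0 by 0.11 ± 0.11 (interval -0.13 to 0.35, adjusted p = 0.661, limma) and from PBS by 0.04 ± 0.11 (interval -0.20 to 0.28, adjusted p = 0.918). HDAd-0 minus PBS was -0.07 ± 0.11 (interval -0.31 to 0.17, adjusted p = 0.821, limma).

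Hmgcs1 encodes the cytosolic synthase that makes HMG-CoA, the substrate of the step that yields mevalonate. Its brightest probe set, 1433443_a_at, read 13.10, 13.06 and 13.02 with PBS, 13.17, 13.06 and 13.14 with HDAd-0, and 13.17, 13.19 and 13.20 with HDAd-gE3. The HDAd-gE3 arrays lay above the PBS arrays by a narrow margin. HDAd-gE3 minus PBS was 0.13 ± 0.061 (interval -0.01 to 0.27, adjusted p = 0.497, limma). The difference was 0.06 ± 0.061 for HDAd-gE3 minus HDAd-0 (adjusted p = 0.686) and 0.06 ± 0.061 for HDAd-0 minus PBS (adjusted p = 0.702). The 2 next probe sets of the same transcript, 1433445_x_at and 1433444_at, also had all HDAd-gE3 arrays above all PBS arrays, by 0.06 and 0.08, and were no higher with HDAd-gE3 than with HDAd-0, by -0.00 and -0.04. The suffix x marks a probe set whose probes can also bind other transcripts.

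The other 2 probe sets of Hmgcs1 also had a higher mean with HDAd-gE3 than with PBS, but their groups overlapped. The difference was 0.26 for 1433446_at (adjusted p = 0.642, limma) and 0.04 for 1441536_at (adjusted p = 0.941). The signal of 1433446_at was 11.01, 11.10 and 10.73 with PBS, 10.97, 10.46 and 11.20 with HDAd-0, and 11.16, 11.37 and 11.09 with HDAd-gE3. Its low value in HDAd-0 replicate 4 set the mean of that group. HDAd-gE3 minus HDAd-0 was 0.33 ± 0.18 (interval -0.09 to 0.75, adjusted p = 0.476, limma), and it was -0.07 when the 3' minus 5' control signal was added to the model. The dim 1441536_at read 6.48, 6.18 and 6.45 with PBS, 5.93, 6.04 and 6.47 with HDAd-0, and 6.46, 6.37 and 6.41 with HDAd-gE3, with all groups overlapping.

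Idi1 encodes isopentenyl diphosphate isomerase, which interconverts the 2 isoprenoid building blocks. Its 1451122_at read 9.63, 9.64 and 9.43 with PBS. It read 9.63, 9.41 and 9.85 with HDAd-0, and 9.63, 9.66 and 9.76 with HDAd-gE3. The spread within HDAd-0 covered the whole range of the other groups. HDAd-gE3 minus HDAd-0 was 0.05 ± 0.12 (interval -0.21 to 0.31, adjusted p = 0.871, limma) and HDAd-gE3 minus PBS 0.12 ± 0.12 (interval -0.15 to 0.38, adjusted p = 0.756). The other probe set, 1423804_a_at, had the opposite sign in both, at -0.16 and -0.05, and its groups overlapped.

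Sqle encodes squalene epoxidase, which carries out the first oxygen-requiring step of the sterol branch. Its only probe set, 1415993_at, read 8.55, 8.55 and 8.51 with PBS, 8.57, 8.59 and 8.65 with HDAd-0, and 8.47, 8.34 and 8.71 with HDAd-gE3. The PBS arrays lay just below the HDAd-0 arrays, and the HDAd-gE3 arrays spanned both. HDAd-gE3 minus HDAd-0 was -0.10 ± 0.094 (interval -0.31 to 0.12, adjusted p = 0.675, limma). HDAd-0 minus PBS was 0.06 ± 0.094 (interval -0.15 to 0.28, adjusted p = 0.813, limma).

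Lss encodes lanosterol synthase, which folds epoxidised squalene into the sterol ring system. Its brightest probe set, 1426913_at, read 8.26, 8.04 and 8.03 with PBS, 8.18, 8.06 and 7.95 with HDAd-0, and 8.07, 8.06 and 8.13 with HDAd-gE3. Those groups overlapped, with differences of at most 0.05 in size and adjusted p of 0.859 or more (limma). Larger differences came from 1420014_at, which read 8.27, 8.06 and 8.14 with PBS, 8.08, 7.98 and 7.89 with HDAd-0, and 7.91, 7.76 and 7.98 with HDAd-gE3. There every HDAd-gE3 array lay below every PBS array, by -0.28 ± 0.089 (interval -0.48 to -0.08, adjusted p = 0.328, limma). The third probe set, 1420013_s_at, was also lower in every HDAd-gE3 array than in PBS, by -0.18 ± 0.092 (adjusted p = 0.527, limma). HDAd-0 minus PBS was -0.05 for 1426913_at, -0.18 for 1420014_at (adjusted p = 0.461, limma) and -0.19 for 1420013_s_at (adjusted p = 0.447). All 3 probe sets thus had their highest mean with PBS, while the order of HDAd-0 and HDAd-gE3 differed between them.

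Cyp51 encodes the cytochrome P450 that demethylates lanosterol. Its brightest probe set, 1450646_at, read 9.46, 9.36 and 9.47 with PBS, 9.23, 9.24 and 9.48 with HDAd-0, and 9.45, 9.33 and 9.49 with HDAd-gE3. Values near 9.2 occurred in 2 HDAd-0 arrays, and the groups overlapped. HDAd-0 minus PBS was -0.12 ± 0.088 (interval -0.32 to 0.08, adjusted p = 0.621, limma). The dimmer 1422533_at read 7.65, 7.59 and 7.86 with PBS, 7.37, 7.33 and 7.47 with HDAd-0, and 7.61, 7.42 and 7.49 with HDAd-gE3. All HDAd-0 arrays lay below all PBS arrays, by -0.30 ± 0.090 (interval -0.51 to -0.10, adjusted p = 0.263, limma). The dimmest, 1422534_at, ranged from 4.81 to 5.79 over the 9 arrays, with overlapping groups.

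Dhcr7 encodes the reductase of a last step to cholesterol. Its probe set 1448619_at read 11.04, 11.03 and 10.99 with PBS, 11.10, 10.89 and 11.23 with HDAd-0, and 11.04, 10.94 and 11.05 with HDAd-gE3. The groups overlapped, and both the highest and the lowest value belonged to HDAd-0. HDAd-gE3 minus PBS was -0.01 ± 0.090 (interval -0.21 to 0.20, adjusted p = 0.982, limma), the smallest difference of the 8 genes in that comparison beside Cyp51.

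**Figure D2:**
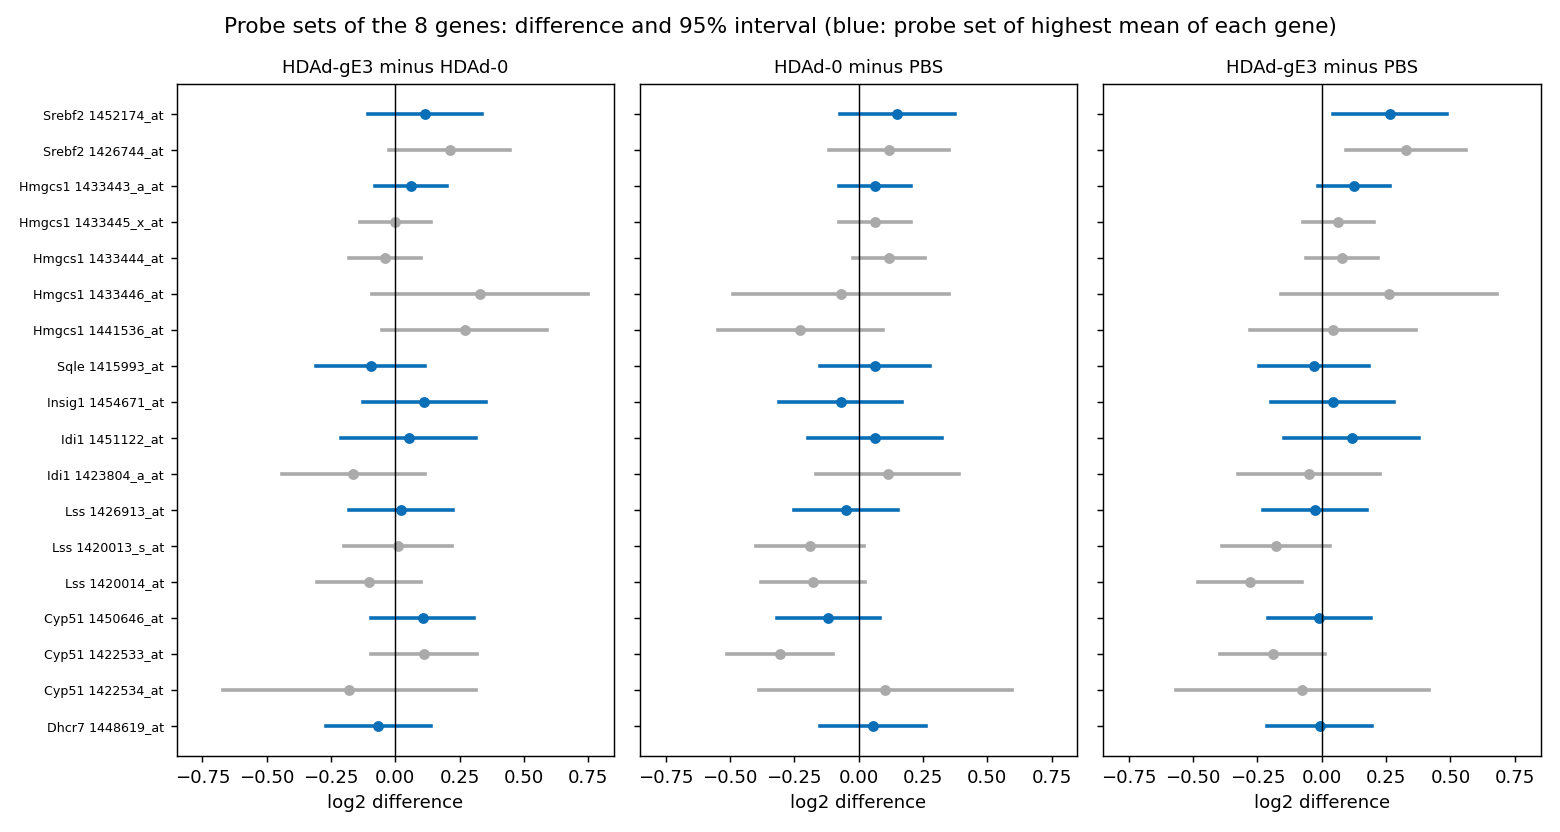
Log2 difference of each of the 18 probe sets in the 3 comparisons, with its 95% interval (not adjusted for the number of probe sets). Intervals that leave out 0 are those of both Srebf2 probe sets and of Lss 1420014_at for HDAd-gE3 minus PBS, and of Cyp51 1422533_at for HDAd-0 minus PBS.

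HDAd-gE3 minus HDAd-0 addresses what apolipoprotein E3 adds to the vector. Of the 18 probe sets, 0 passed the adjusted threshold, as did 0% of all 45037 (limma). At an unadjusted p under 0.05 the count was again 0, against 12.8% of all probe sets. Srebf2 1426744_at alone had groups that did not overlap, against 15.9% of all. Taken per gene, 6 of the 8 had the higher mean with HDAd-gE3 and 2, Sqle and Dhcr7, the lower, while 38.3% of all genes had the higher mean. The median difference of the 8 genes was 0.0563, beside -0.0397 for all genes. That count depended on the setting, with 3 higher and 5 lower (median -0.00818) after array medians were subtracted, which shifted all genes by -0.0645, and 4 and 4 (median -0.00461) with the mean of a gene's probe sets. The 95% intervals ran from -0.31 to 0.35 for the brightest probe set of each gene and from -0.67 to 0.75 over all 18 probe sets.

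HDAd-0 minus PBS asks what the vector itself does. Again 0 of the 18 probe sets passed, against 0.00888% of all (limma). Cyp51 1422533_at, lower with HDAd-0, was the single probe set at an unadjusted p under 0.05, against 12.3% of all, and 3 probe sets had groups that did not overlap, against 16.9%. The median of the 8 genes was 0.0606, beside 0.0244 for all genes, and 5 of the 8 were higher and 3 lower, while 57.6% of all genes were higher. Intervals ran from -0.32 to 0.37 for the brightest probe sets and from -0.55 to 0.60 over all 18.

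HDAd-gE3 minus PBS shares its arrays with both other comparisons. It had 0 of 18 probe sets past the adjusted threshold, against 0.00222% of all (limma). At an unadjusted p under 0.05 there were 3, both Srebf2 probe sets higher and Lss 1420014_at lower, against 11% of all probe sets. Groups did not overlap for 5 probe sets that were higher, of Srebf2 and Hmgcs1, and 2 of Lss that were lower, together 7 of 18, against 20.8% of all. Probe sets of a gene are not independent, so these 7 repeat the same genes. By the brightest probe set of each gene, groups did not overlap for 2 of 8, Srebf2 and Hmgcs1, which were higher. The median of the 8 genes was 0.0169, beside -0.0152 for all genes, and 4 were higher and 4 lower, while 45.4% of all genes were higher. Intervals ran from -0.25 to 0.49 for the brightest probe sets and from -0.57 to 0.68 over all 18.

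The average of the 8 genes overlapped between all 3 groups. For Srebf2 and Hmgcs1, by the brightest probe set, all HDAd-gE3 arrays lay above all PBS arrays. Averaged over the 8 genes, each centred on its own mean, the PBS arrays stood at 0.03, -0.02 and -0.08, the HDAd-0 arrays at -0.01, -0.10 and 0.09, and the HDAd-gE3 arrays at 0.00, -0.02 and 0.11. The group means were -0.03 ± 0.056 (SD, n = 3) with PBS, -0.01 ± 0.097 with HDAd-0 and 0.03 ± 0.072 with HDAd-gE3. HDAd-gE3 replicate 4 held the highest value of 4 genes and HDAd-0 replicate 5 of 3, while HDAd-0 replicate 4 held the lowest of 3 and PBS replicate 4 of 2. The moderated SD of the 8 genes had a median of 0.113, beside 0.12 for all genes.

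**Figure D3:**
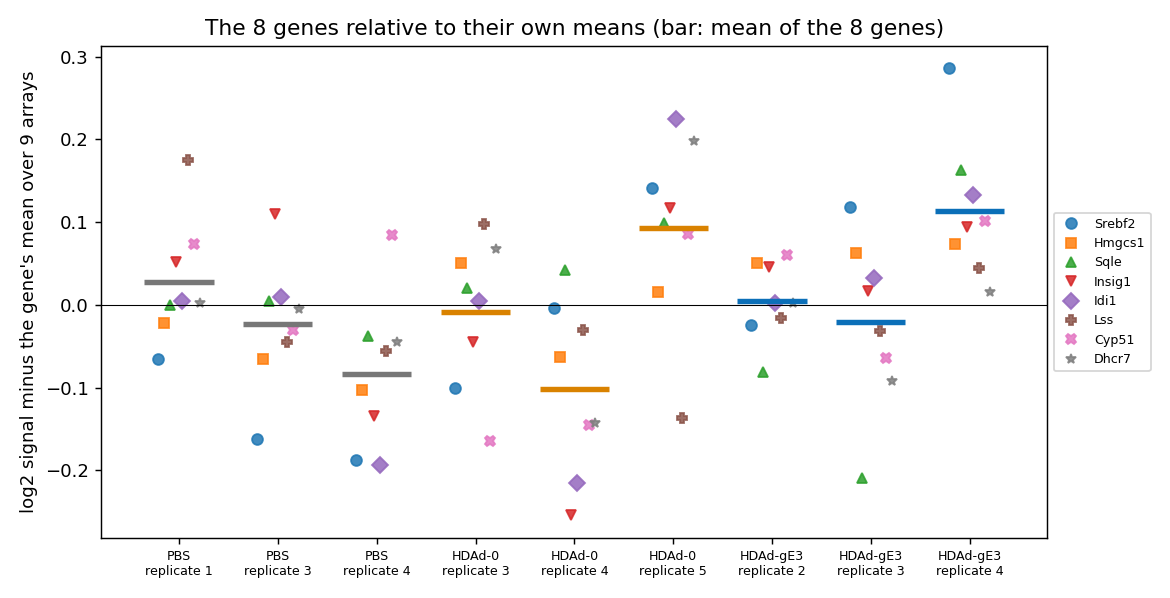
Log2 signal of the 8 genes in each of the 9 arrays, each gene relative to its own mean over all arrays. HDAd-0 replicate 4 and PBS replicate 4 lie low and HDAd-gE3 replicate 4 and HDAd-0 replicate 5 high for most genes. Exceptions are Sqle in HDAd-0 replicate 4, Cyp51 in PBS replicate 4 and Lss in HDAd-0 replicate 5.

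Pairs of the 8 genes correlated over the 9 arrays with r from -0.134 to 0.879, with a median of 0.309, and 23 of the 28 pairs were above 0. Insig1 and Idi1 had the highest r, then Idi1 and Dhcr7 with 0.776 and Srebf2 and Hmgcs1 with 0.693. Against the mean of the other 7 genes, r was 0.879 for Idi1, 0.713 for Insig1 and 0.625 for Dhcr7, and -0.0553 for Lss. These values describe 9 arrays that share normalization and, within a group, treatment. No such share was computed over pairs of all genes. The count therefore does not tell whether the 8 genes varied together more than other genes.

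Marker lists of other tissues also differed between the same arrays, and not all in 1 direction. The log2 of the summed signal of 6 measured adipose markers of 8 listed was lowest in PBS replicate 4, at 14.89, and in HDAd-0 replicate 4, at 14.92, the arrays with the lowest mean of the 8 genes. It ranged from 15.09 to 15.22 in the other 7 arrays. Summed neutrophil markers (7 of 8 measured) were highest in HDAd-gE3 replicate 4, at 15.20, and summed liver markers (7 of 8) in HDAd-0 replicate 5, at 13.04, the arrays with the highest mean of the 8 genes. Neither list was high in both of these arrays. Neutrophil markers were lowest of all arrays in HDAd-0 replicate 5, at 13.64, and liver markers stood at 10.78 in HDAd-gE3 replicate 4. Liver markers stood at 12.03 in HDAd-0 replicate 4, where the mean of the 8 genes was lowest. Summed skeletal muscle markers (8 of 8) were highest in HDAd-0 replicate 5, at 11.54, and lowest in HDAd-gE3 replicate 4, at 9.43. They ran from 10.51 to 11.02 with PBS, 10.07 to 11.54 with HDAd-0 and 9.43 to 10.58 with HDAd-gE3. By group, neutrophil markers ran from 14.0 to 14.2 with PBS, 13.6 to 14.3 with HDAd-0 and 14.6 to 15.2 with HDAd-gE3. Summed erythroid markers (5 of 8) had the order of group means seen for Srebf2, from 11.71 to 12.01 with PBS, 12.53 to 13.03 with HDAd-0 and 12.98 to 13.42 with HDAd-gE3, and the smallest adjusted p of a gene in that list was 0.054 (HDAd-gE3 minus PBS, limma). Summed cardiac markers (8 of 8) ran from 16.19 to 16.23 with PBS, 15.16 to 15.85 with HDAd-0 and 15.72 to 16.58 with HDAd-gE3. Summed endothelial markers (8 of 8) ran from 13.68 to 13.74 with PBS, 13.99 to 14.24 with HDAd-0 and 13.77 to 13.86 with HDAd-gE3, so that HDAd-0 lay apart from PBS in both lists. The 3' minus 5' control signal was highest in HDAd-0 replicate 4, at 1.08. The part of these in the values of the 8 genes was not tested.

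Other genes of the pathway were taken from lists. Of 15 other enzymes of cholesterol synthesis, 12 were measured and 0 passed in any comparison (limma). HDAd-gE3 minus HDAd-0 was above 0 for 8 and below for 4, while 38.3% of all genes were above 0. The median was 0.0384, with 1 gene at an unadjusted p under 0.05, against 11.5% of all genes. HDAd-0 minus PBS was above 0 for 3 and below for 9, while 57.6% of all genes were above 0. The median was -0.0974, beside 0.0244 for all genes, with 0 such genes, against 11.7%. HDAd-gE3 minus PBS was above 0 for 4 and below for 8, while 45.4% of all genes were above 0. The median was -0.0544, with 1 such gene, against 11.9%.

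Fdps, the synthase of farnesyl diphosphate, read 8.55, 8.47 and 8.33 with PBS, 8.11, 8.04 and 8.66 with HDAd-0, and 8.63, 8.69 and 8.78 with HDAd-gE3. HDAd-gE3 minus HDAd-0 was 0.43 ± 0.15 (interval 0.08 to 0.78, adjusted p = 0.33, limma), and the groups overlapped through HDAd-0 replicate 5. Mvd, which makes isopentenyl diphosphate, read 8.09, 8.03 and 7.92 with PBS, 7.85, 7.69 and 7.85 with HDAd-0, and 7.79, 7.49 and 7.80 with HDAd-gE3. Every HDAd-gE3 array lay below every PBS array, by -0.32 ± 0.10 (adjusted p = 0.322, limma). Fdft1, the squalene synthase, differed between HDAd-gE3 and HDAd-0 by -0.25 ± 0.11 (adjusted p = 0.396, limma), and Hsd17b7, a sterol ketone reductase, between HDAd-0 and PBS by -0.29 (adjusted p = 0.476). Each of these genes is given in the comparison where its p was smallest. In HDAd-gE3 minus HDAd-0, the neighbouring enzymes Fdps and Fdft1 thus had differences of opposite sign, neither past the test. The probe sets of Fdft1 and Hsd17b7, 1438322_x_at and 1457248_x_at, carry the suffix x.

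Among 8 of 9 listed genes of SREBP processing, 0 passed in any comparison (limma). The smallest adjusted p belonged to Srebf1, which encodes SREBP1, the relative of SREBP2 that acts mainly on fatty acid genes. Srebf1 read 11.26, 11.30 and 11.09 with PBS, 11.07, 11.16 and 10.99 with HDAd-0, and 10.82, 10.83 and 10.82 with HDAd-gE3. The HDAd-gE3 arrays lay below all 6 others. The order of the group means was the reverse of that of Srebf2. HDAd-gE3 minus PBS was -0.38 ± 0.077 (interval -0.56 to -0.21, adjusted p = 0.153, limma) and HDAd-gE3 minus HDAd-0 was -0.25 ± 0.077 (adjusted p = 0.285, limma). With limma array weights the former reached an adjusted p of 0.0439, the smallest of 22 alternatives, whose adjusted p ran up to 0.488. Mbtps1, the protease that makes the first cut in SREBP, was 0.20 higher with HDAd-0 than with PBS (adjusted p = 0.374, limma), and Mbtps2 and Rnf139 had adjusted p of 0.6 or more in the comparison where each came closest.

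Of 9 other targets of SREBP2, 7 were measured and 0 passed (limma). HDAd-0 minus PBS was above 0 for 6 of them and below for 1, with a median of 0.119, while 57.6% of all genes were above 0 with a median of 0.0244. The 6 include the dim Npc1l1, with a mean log2 signal of 3.47 and a difference of 0.08 (adjusted p = 0.833, limma). An unadjusted p under 0.05 was reached by 3 of the 7 targets, beside 11.7% of all genes. Those were Tmem97, a sterol-responsive membrane protein, at 0.23 ± 0.082 (adjusted p = 0.324, limma), Stard4, a cytosolic sterol carrier, at 0.24 ± 0.096 (adjusted p = 0.373), and Acss2, which makes acetyl-CoA from acetate, at -0.23 ± 0.077 (adjusted p = 0.31). Without HDAd-0 replicate 4, Stard4 stood at 0.35 with an adjusted p of 0.0498 (limma), in a setting that called 542 of all 45037 probe sets. It was called in 1 of the 22 alternatives, over which its difference went down to 0.153 and its adjusted p up to 0.692. HDAd-gE3 minus HDAd-0 was above 0 for 2 and below for 5, while 38.3% of all genes were above 0. Fads2, a fatty acid desaturase, was 0.29 ± 0.15 higher with HDAd-gE3 than with PBS (adjusted p = 0.506, limma).

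**Figure D4:**
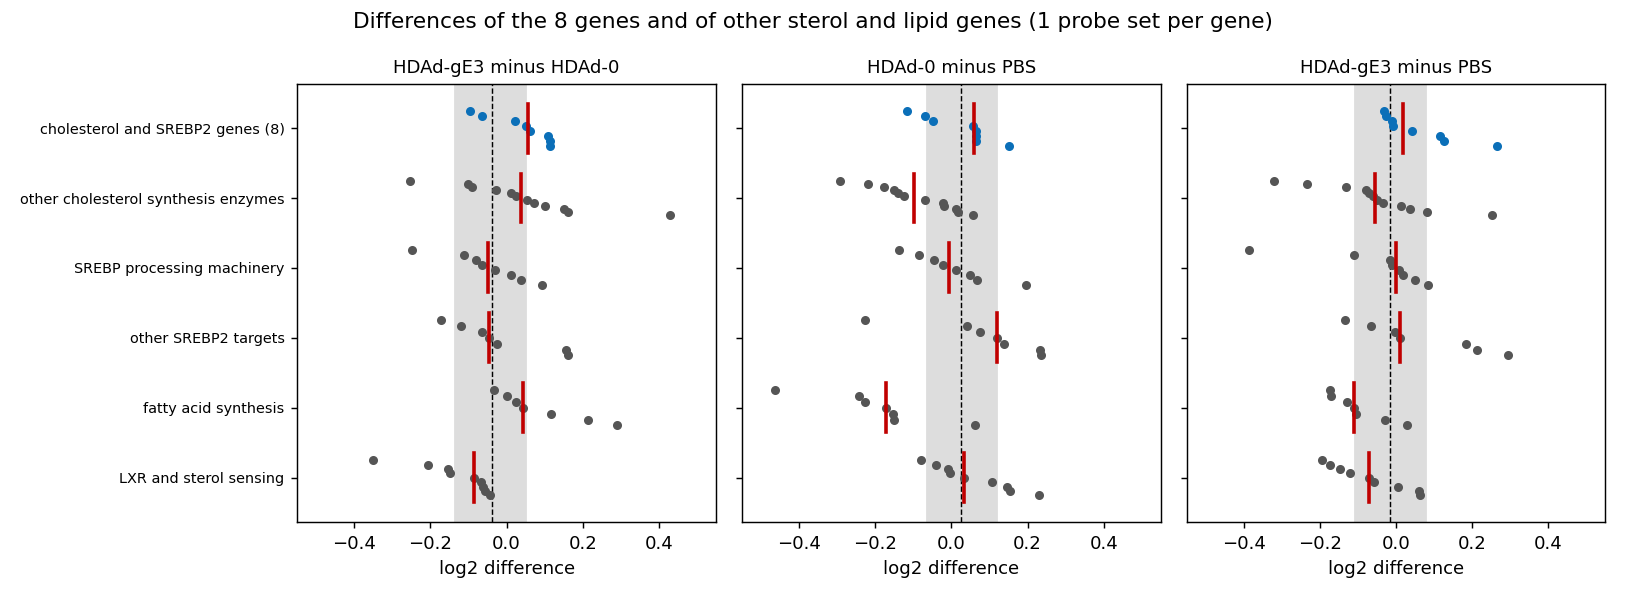
Log2 differences of the 8 genes and of the measured genes of 5 related lists in the 3 comparisons, 1 point per gene (its brightest probe set), with the median of each list as a line. Medians of the lists lie between -0.171 and 0.119, and no gene shown passed the adjusted threshold.

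The genes whose pattern over the 9 arrays was most like the mean of the 8 genes were taken from 12834 genes with a mean log2 signal of at least 6. They were Traf4 with r = 0.957, Zfp626 with 0.895, Tube1 with 0.883, Rxra with 0.869, Nicn1 with 0.862, Trim59 with 0.857, Tbc1d10c with 0.857 and Pcp2 with 0.853. None of these 8 passed the test in any comparison (limma). They are the top of a long ranking over few arrays and are given as a description.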

How the data were processed

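Per the labels' protocols, RNA was extracted with an RNeasy kit, amplified with the FL-Ovation kit and labelled with biotin. The authors deposited 1 log2 signal per probe set and array. The submitters' processing notes name RMA, without a version. This method subtracts background, equalises the distributions of the arrays and combines probes, and so hides any shift common to most genes. The log2 scale was inferred from the range. The platform annotation gave 1 gene to 34945 probe sets, several to 932 and none to 9160, besides 64 controls among 45101.

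One model per probe set was fitted over the 9 arrays (limma 3.58.1 in R 4.3.3, functions lmFit and eBayes), with no filter and 6 residual degrees of freedom. The Benjamini-Hochberg adjustment ran over 45037 probe sets. Groups of 3 and 3 arrays allow no p below 0.1 in an exact permutation test. The fit was tested on simulated data. The labels call the pools separate, and p-values measure the spread between them. Same-numbered arrays deviated together with r from 0.0112 to 0.128, and no label says that a number marks a batch, so the numbers were not used to pair arrays.

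The 8 genes and all lists were chosen with earlier results of these data known. Genes of other lists are named as those with an adjusted p past the threshold or else up to 4 with the smallest unadjusted p in any comparison. Likeness was Pearson's r over 9 arrays with the mean of the 8 centred genes, for 8 genes. Of the 52 genes in the related lists 43 were measured, and the others are not analysed here. Alternatives covered scaling, filters, choice of probe set, array weights, an intensity trend, 2-group fits, a replicate block, thresholds and left-out arrays. The 3' minus 5' control signal as covariate and the removal of a pair of arrays were added. Promoter windows were searched with Python 3.11.15 and figures drawn with matplotlib 3.10.9.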

Additional observations from a re-analysis of the deposited data

How the results depend on the processing

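Under 22 alternatives, 0 of the 1125 values computed for the 18 probe sets were called (limma), with a smallest adjusted p of 0.121, for Srebf2 1426744_at in HDAd-gE3 minus PBS with array weights. Of these values 67 had the other sign than the one reported, all while not called, and 18 moved by at least 1 SD. Srebf2 kept its sign for HDAd-gE3 minus PBS throughout, from 0.19 to 0.38 for 1452174_at and from 0.26 to 0.44 for 1426744_at. The median of the 8 genes for HDAd-gE3 minus HDAd-0 turned sign in 3 settings, to -0.0188 with the 3' minus 5' covariate, -0.00818 with array medians subtracted and -0.00461 with the mean of a gene's probe sets. For HDAd-gE3 minus PBS it turned to -0.0131 with the covariate, -0.0222 with array medians subtracted, -0.00906 with array weights and -0.00363 with that pair of arrays left out (HDAd-gE3 replicate 4, HDAd-0 replicate 5), and for HDAd-0 minus PBS to -0.00624 with the same pair left out. With each array left out, the median for HDAd-gE3 minus HDAd-0 ran from 0.0173 to 0.115, from -0.00624 to 0.0837 for HDAd-0 minus PBS and from -0.00592 to 0.0567 for HDAd-gE3 minus PBS.

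The counts over all probe sets, 0, 4 and 1 for HDAd-gE3 minus HDAd-0, HDAd-0 minus PBS and HDAd-gE3 minus PBS, depended on the setting, and the cause was not tested. They became 1, 12 and 23 with 1 probe set per gene and 1, 15 and 24 with the mean of a gene's probe sets, where fewer features are tested. The last 2 became 8 and 58 with dim probe sets removed, 23 and 86 with an intensity trend, 47 and 70 at a threshold of 0.1, 0 and 12 with only the 2 groups compared, 0 and 0 with the replicate block (the numbers did not pair the arrays), 0 and 0 with the covariate, and 1 and 0 when both HDAd-0 replicate 5 and HDAd-gE3 replicate 4 were dropped. Array weights gave 279 for HDAd-gE3 minus PBS. With each array left out the counts ran from 0 to 402, 0 to 542 and 0 to 12. The 402 and 542 came without HDAd-0 replicate 4 and the 12 without HDAd-0 replicate 3, and 0 of the 18 probe sets were among them. Subtracting array medians shifted all genes by -0.0645 in HDAd-gE3 minus HDAd-0. With 3 arrays per group, differences inside the intervals given cannot be resolved.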

Other observations

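The genes of fatty acid synthesis had a lower mean with HDAd-0 than with PBS for 6 of 7 measured genes (8 listed). Their median was -0.171 beside 0.0244 for all genes, and 0 passed the adjusted threshold (limma). Of all genes, 57.6% had the higher mean with HDAd-0. A probe set of Mlxipl, which encodes the transcription factor ChREBP, was among the 4 called in this comparison, at -0.80 (adjusted p = 0.0368, limma). Srebf1 stood at -0.14 (adjusted p = 0.507, limma). The part of either gene in the values of the fatty acid genes was not tested. Elovl6, a fatty acid elongase, stood at -0.46 ± 0.17 (SE; adjusted p = 0.338, limma). Its HDAd-0 arrays were all below the PBS arrays, but only just, at 11.118 in HDAd-0 replicate 3 and 11.123 in PBS replicate 4. Its lowest value was 10.45, in HDAd-0 replicate 4. Acly, which makes cytosolic acetyl-CoA, stood at -0.17 ± 0.061 (adjusted p = 0.325), Fasn, the fatty acid synthase, at -0.24 (adjusted p = 0.433) and Me1, the malic enzyme that supplies NADPH, at -0.15 (adjusted p = 0.428). Elovl6 and Acly, 2 of the 7, had an unadjusted p under 0.05, beside 11.7% of all genes. HDAd-gE3 minus PBS was also below 0 for 6 of the 7, with a median of -0.111 beside -0.0152 for all genes, in a comparison that shares the PBS arrays, and HDAd-gE3 minus HDAd-0 was above 0 for 6 of the 7. Of all genes, 45.4% were above 0 in the former and 38.3% in the latter. Between HDAd-0 and PBS, all 8 cardiac markers were lower and all 8 endothelial and all 7 measured liver markers (of 8) higher by their means, none past the adjusted threshold. The summed levels of the first were 15.16 to 15.85 with HDAd-0 and 16.19 to 16.23 with PBS, of the second 13.99 to 14.24 and 13.68 to 13.74, and of the third 11.44 to 13.04 and 10.64 to 10.91. Of 6 measured adipose markers (of 8), 4 were higher with HDAd-0 and 2 lower, with a median of 0.0161. Their summed levels were 14.92 to 15.18 with HDAd-0 and 14.89 to 15.15 with PBS. The part of these lists in the values of the fatty acid genes was not tested.

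Of the genes of oxysterol sensing and sterol export, 9 of 11 were measured, and all 9 had a lower mean with HDAd-gE3 than with HDAd-0, with a median of -0.0854 beside -0.0397 for all genes, and 0 passed (limma). In that comparison 38.3% of all genes had the higher mean with HDAd-gE3. Abca1, the cholesterol exporter, read 12.57, 12.62 and 12.62 with PBS, 12.58, 12.71 and 12.62 with HDAd-0, and 12.43, 12.41 and 12.46 with HDAd-gE3. Its HDAd-gE3 arrays lay below all 6 others, by -0.21 ± 0.062 from HDAd-0 (adjusted p = 0.27, limma) and by -0.17 from PBS (adjusted p = 0.378). Mylip, a ligase that marks the LDL receptor for breakdown, differed from PBS by -0.19 (adjusted p = 0.404) and Npc1, which exports cholesterol from lysosomes, by -0.15 (adjusted p = 0.445), while Ch25h, which makes an oxysterol, differed from HDAd-0 by -0.35 (adjusted p = 0.412, limma). Summed macrophage markers, all 8 measured, ran from 15.27 to 15.33 with PBS, 15.33 to 15.41 with HDAd-0 and 15.17 to 15.19 with HDAd-gE3, lowest in the same group, and their part in these values was not tested.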
